A study of Mus musculus with 2 samples.

Results

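The mouse Serpina1 genes, Serpina1a, Serpina1b, Serpina1c, Serpina1d and Serpina1e, were followed paralog by paralog across the cells of mouse knee cartilage. They were found by their symbols, and all 5 were present among the 32285 genes measured in each library. The libraries were 2 single-cell RNA libraries of wild-type (WT) mice, 1 made after sham surgery and 1 after DMM, the surgical destabilisation of the medial meniscus, which leads to osteoarthritis in mice. Each pooled the knee cartilage of 3 mice, whose age and strain are not given in the sources used here. Live cells were sorted as Calcein AM positive and DAPI negative, without the blood and vessel surface proteins CD45, Ter119 and CD31, and their 3' transcript ends were counted by unique molecular identifier (UMI) on a 10x Genomics V2 kit. Each condition was 1 library, which allows no test of one against the other. The 95% intervals in brackets stand for counting error alone and leave out variation among cells, mice and preparations. The members were chosen by name with their measured UMI levels across these cells already known to differ, so the levels below are descriptions.

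Serpina1 genes encode alpha-1-antitrypsin, a secreted inhibitor of serine proteases whose best known target is neutrophil elastase. The inhibitor presents a reactive loop as bait, and the protease that cuts it is trapped in a covalent complex, which is then cleared by receptors such as the one encoded by Lrp1. Humans have a single SERPINA1 gene, made mainly by liver cells, whereas mice carry several near-identical copies whose reactive loops differ, so that the encoded proteins do not all inhibit the same proteases. In cartilage, the outermost (superficial) cells secrete the joint lubricant lubricin, encoded by Prg4. Deeper chondrocytes build a matrix of type II collagen (Col2a1) and aggrecan (Acan), and hypertrophic chondrocytes make type X collagen (Col10a1).

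The 5 genes lie side by side on the minus strand of mouse chromosome 12, over 230820 bases in the GENCODE vM21 annotation of GRCm38. From low to high coordinate they are Serpina1b (ENSMUSG00000071178, 103728156 to 103830373), Serpina1d (ENSMUSG00000071177, 103763594 to 103773592), Serpina1a (ENSMUSG00000066366, 103853589 to 103863562), Serpina1c (ENSMUSG00000079015, 103894926 to 103904887) and Serpina1e (ENSMUSG00000072849, 103946931 to 103958975). The Serpina1b gene model spans Serpina1d, so the assignment of reads between those 2 overlapping genes is uncertain. To show how alike the copies are next to how differently they were expressed, the same 119 bases upstream of each RefSeq start site are printed here, 5' to 3' on the minus strand of GRCm38.p6, with capitals at the bases that differ from Serpina1e. No annotated exon of the same gene overlaps its window, and exons of other genes were not checked. The windows of Serpina1b and Serpina1e lie inside their GENCODE gene models, which start further upstream than the RefSeq start sites.
Serpina1a: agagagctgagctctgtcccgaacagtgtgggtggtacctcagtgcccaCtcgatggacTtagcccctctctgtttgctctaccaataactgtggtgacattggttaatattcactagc
Serpina1b: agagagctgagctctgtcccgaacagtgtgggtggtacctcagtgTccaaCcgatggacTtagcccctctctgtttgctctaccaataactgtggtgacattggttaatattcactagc
Serpina1c: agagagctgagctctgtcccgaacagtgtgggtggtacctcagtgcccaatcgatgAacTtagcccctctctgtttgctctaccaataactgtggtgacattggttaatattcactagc
Serpina1d: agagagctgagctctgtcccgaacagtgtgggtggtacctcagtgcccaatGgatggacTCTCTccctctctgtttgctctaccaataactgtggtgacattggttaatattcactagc
Serpina1e: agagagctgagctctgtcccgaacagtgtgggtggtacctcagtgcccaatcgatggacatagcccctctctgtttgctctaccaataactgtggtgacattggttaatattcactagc

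The windows lie at chr12:103863625-103863743 (Serpina1a), chr12:103738200-103738318 (Serpina1b), chr12:103904962-103905080 (Serpina1c), chr12:103773634-103773752 (Serpina1d) and chr12:103956960-103957078 (Serpina1e). Serpina1a and Serpina1c each differed from Serpina1e at 2 of 119 bases (98.3% identity), Serpina1b at 3 (97.5%) and Serpina1d at 6. The last 55 bases were identical in all 5 windows. Relative to its RefSeq start site, the Serpina1e window runs from -181 to -63, whereas those of the other 4 genes end between -12 and -1.

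Short motifs were searched on both strands of the 300-base RefSeq promoters (250 bases before the start site and 50 after), which were matched for all 5 genes among 27025 genes. The C/EBP motif TTGCNNAA (C/EBP factors act in liver and acute phase responses) was in the promoters of Serpina1a, Serpina1b, Serpina1d and Serpina1e and in 12.2% of all promoters. In Serpina1a it lay after the start site (position 24), and in Serpina1b, Serpina1d and Serpina1e before it (-161, -149 and -211). The HNF1 half-site GTTAAT was in all 5 promoters and in 8.24% of all promoters. The AP-1 motif TGANTCA was in those of Serpina1a, Serpina1b, Serpina1c and Serpina1d (-233, -240, -239 and -229) and in 8.97% of all promoters. The aligned windows of these genes begin between -130 and -119, but that of Serpina1e begins at -181. At the same distance ahead of its window, a Serpina1e match would lie outside the 250 bases searched. The search therefore cannot show whether Serpina1e lacks the motif. These matches describe letters in a window and say nothing about binding.

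Reads can be told apart only where the transcripts differ. Over the last 500 bases of the longest annotated transcripts, where 3' reads fall, the paralogs were 94.2% to 96.4% identical. Of the 411 possible 90-base reads of each gene there, a read length assumed here, all 411 were unique for Serpina1e, as were 96.4% for Serpina1b, 92.5% for Serpina1d, 84.7% for Serpina1c and 78.1% for Serpina1a. The reads that were not unique to Serpina1a matched Serpina1c or the gene Gm8893. Values of Serpina1a and Serpina1c are therefore the least certain, and the near-identical copies could have lost or exchanged reads at the authors' counting step. A UMI stands for a transcript molecule, so levels of different paralogs are compared as counts scaled to the UMI total of a cell group (CPM) without a length correction.

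The sham library held 11362 barcodes and 106799078 UMIs and the DMM library 11076 barcodes and 97346999 UMIs, and 24 barcode sequences occurred in both (0.211% and 0.217% of barcodes). Filters left 9505 sham cells with a median of 8054 UMIs and 9578 DMM cells with a median of 7883.5. Cells fell into 26 clusters, made without the 5 Serpina1 genes, of which 7 were cartilage clusters holding 42.8% of sham and 37.7% of DMM cells. The labels call the cells superficial, but most kept cells were of other kinds: 15.3% of sham and 12.4% of DMM cells were superficial zone chondrocyte-like, and despite the sort 15.7% and 9.37% were erythroid-like. The haemoglobin transcript Hbb-bs, at 67484 and 56683 CPM in erythroid-like cells, also appeared in superficial cells at 1898 CPM in sham and 588 CPM in DMM. Its part in the differences between the libraries was not tested.

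The cartilage clusters are named here by their leading genes. Superficial zone chondrocyte-like cells (1454 in sham, 1189 in DMM) comprised the Casr/Moxd1/Chst3 cluster (886 and 729 cells; Prg4 at 51848 and 70712 CPM) and the Msmp/Wfdc2/Gdf6 cluster (568 and 460 cells; Prg4 at 20322 and 19981 CPM). The Chst5/Hmga2/Inhba cluster (636 and 917 cells) stayed unnamed: it had Prg4 at 67648 and 63821 CPM and 5 of 8 superficial markers, yet its leading genes held Col10a1, at 2063 and 2719 CPM. Chondrocyte-like cells (1393 and 1055) comprised the A2m/Tspan18/Tenm2 cluster (794 and 693), the Pcp4/Rgs6/Luzp2 cluster (525 and 303) and the cycling Cep55/H1fx/Iqgap3 cluster (74 and 59). Col2a1 stood at 23897 and 21425 CPM in the A2m cluster, against 2430 and 2651 CPM in the Casr cluster. Hypertrophic chondrocyte-like cells (581 and 447) were the Ihh/Nrgn/Tnni2 cluster, with Ihh at 186 and 126.5 CPM.

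Nearly all family UMIs lay in these 7 clusters. They held 98.8% of Serpina1a UMIs in sham (65674 UMIs in all) and 98.9% in DMM (46739), 98.4% and 95.3% of Serpina1b (22437 and 22012), 98.7% and 99.2% of Serpina1c (2187 and 1351), 98.8% and 99.02% of Serpina1d (33909 and 24258) and 98.0% and 95.9% of Serpina1e (5374 and 7364). Within cartilage the paralogs divided. Chondrocyte-like and hypertrophic cells carried 76.2% and 21.6% of Serpina1a UMIs in sham, and 78.5% and 19.4% in DMM. By contrast, 92.0% of Serpina1e UMIs in sham and 91.3% in DMM lay in the superficial and Chst5 clusters. Serpina1b was split between both ends, with 39.1% of sham and 56.3% of DMM UMIs in the superficial and Chst5 clusters and 49.5% and 34.2% in chondrocyte-like cells.

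**Figure D1:**
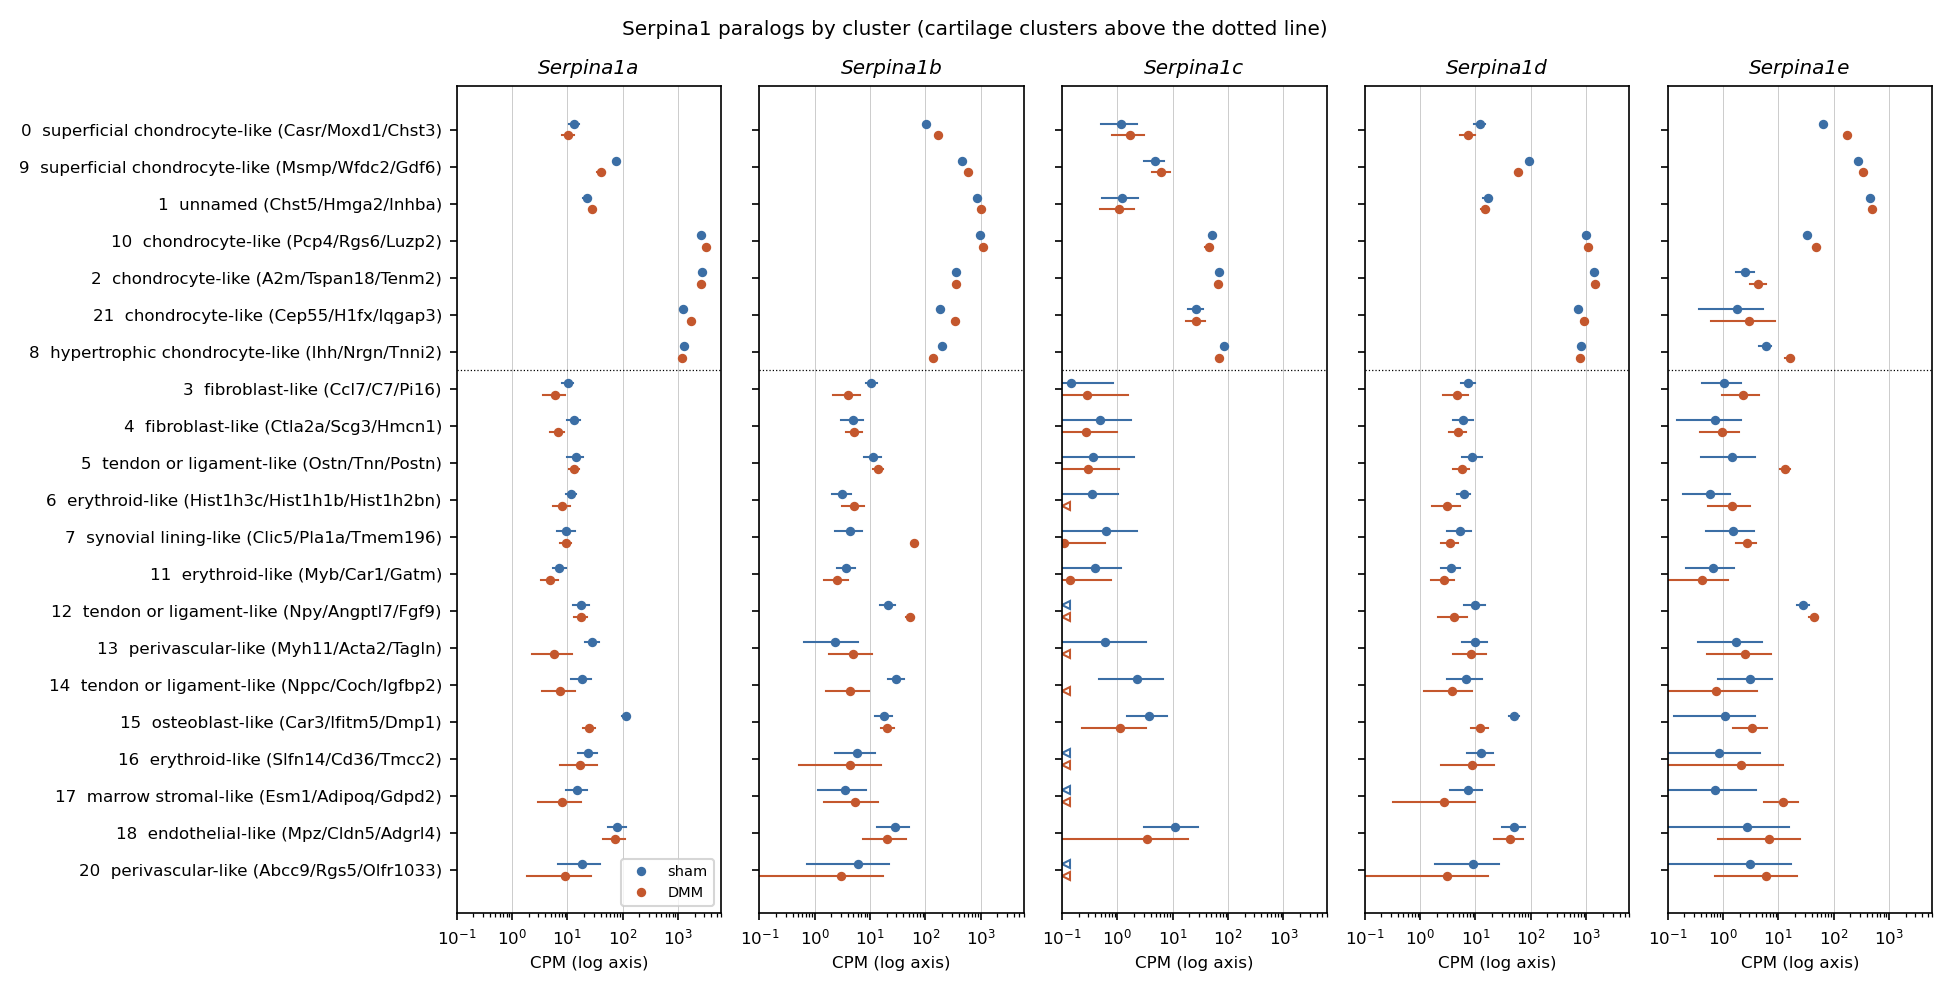
Level of each Serpina1 gene (CPM, log axis) in each cluster with at least 50 cells per library, in sham and DMM; bars are 95% Poisson intervals and open triangles at the left edge mark 0 UMIs. Serpina1a, Serpina1c and Serpina1d are high in the chondrocyte-like and hypertrophic clusters, Serpina1e in the cartilage clusters rich in Prg4, and Serpina1b in both.

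Serpina1a, the most abundant copy, was highest in chondrocyte-like cells. It reached 2680 CPM [2650, 2710] in sham and 2625 CPM [2591, 2659] in DMM in the A2m cluster, and 2568 CPM [2530, 2607] and 3190 CPM [3132, 3248] in the Pcp4 cluster. The order of these 2 clusters therefore differed between the libraries. Next were hypertrophic cells at 1274 and 1198 CPM and the cycling cluster at 1232 and 1751 CPM. Their intervals overlapped in sham, and in DMM the cycling cluster was higher. In the clusters rich in Prg4, Serpina1a was at 77.1 and 40.9 CPM (Msmp cluster), 23.0 and 28.3 CPM (Chst5 cluster) and 13.4 and 10.4 CPM (Casr cluster). Erythroid-like cells, which are not expected to make the gene, had 10.6 and 6.46 CPM, so the Casr cluster stood close to the level of that background.

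Serpina1d was also highest in the chondrocyte-like and hypertrophic clusters, at lower levels than Serpina1a there. In the A2m cluster it stood at 1381 CPM [1359, 1402] in sham and 1440 CPM [1415, 1465] in DMM, in the Pcp4 cluster at 1004 and 1094 CPM, and in hypertrophic cells at 814 and 776 CPM. In the Msmp, Chst5 and Casr clusters it was at 92.9, 16.5 and 11.9 CPM in sham and 58.1, 14.9 and 7.21 CPM in DMM. Serpina1d thus shared with Serpina1a a high level in deeper cells and a low level where Prg4 was high, with 2 differences: the A2m cluster led in both libraries, and in the Msmp cluster Serpina1d was above Serpina1a.

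Serpina1c was the least abundant copy and the one whose hypertrophic level was highest relative to the others. Hypertrophic cells had 84.0 CPM [78.7, 89.6] in sham and 67.4 CPM [61.7, 73.6] in DMM, and the A2m cluster 68.8 CPM [64.1, 73.8] and 66.9 CPM [61.7, 72.5]. The intervals of these clusters overlapped in DMM and not in sham. Its hypertrophic level was 1.41-fold [1.29, 1.54] that of chondrocyte-like cells in sham and 1.17-fold [1.04, 1.30] in DMM, whereas Serpina1a was 1.98-fold and 2.26-fold lower there, Serpina1d 1.47-fold and 1.69-fold lower, and Serpina1b 2.82-fold and 3.96-fold lower. The Casr and Chst5 clusters held 8 to 10 Serpina1c UMIs each per library.

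Serpina1b did not follow either pattern. Its highest levels were in the chondrocyte-like Pcp4 cluster, at 989 CPM [965, 1013] in sham and 1085 CPM [1051, 1120] in DMM, and in the Prg4-rich Chst5 cluster, at 865 CPM [843, 888] and 1026 CPM [1004, 1047]. The Msmp cluster came next with 455 and 585 CPM, ahead of the A2m cluster with 361.5 and 363.9 CPM. Hypertrophic cells (198 and 140 CPM) and the Casr cluster (102.8 and 170.1 CPM) were low. The 2 large chondrocyte-like clusters differed more in Serpina1b than in Serpina1a or Serpina1d: the Pcp4 cluster was 2.74-fold [2.63, 2.84] above the A2m cluster in sham and 2.98-fold [2.85, 3.12] in DMM. They differed most in Serpina1e, at lower levels, with the Pcp4 cluster 13.1-fold [8.89, 20.0] and 11.2-fold [7.85, 16.2] above the A2m cluster.

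Serpina1e was highest in the 3 cartilage clusters rich in Prg4, where Serpina1a was low. It peaked in the unnamed Chst5 cluster, at 463.5 CPM [447, 480] in sham and 486.7 CPM [472, 502] in DMM. The Msmp cluster followed at 278.6 CPM [264, 293.5] and 335.0 CPM [318, 352], and the Casr cluster at 64.2 CPM [58.4, 70.5] and 178 CPM [168, 189]. None of these 3 intervals overlapped the next in either library. Below them, the Pcp4 cluster (33.2 and 48.9 CPM) overlapped the tendon or ligament-like Npy/Angptl7/Fgf9 cluster (28.6 and 43.9 CPM). Hypertrophic cells had 5.92 and 16.03 CPM and the A2m cluster 2.53 and 4.38 CPM, against 0.642 and 0.850 CPM in erythroid-like cells. Prg4 outside cartilage did not go with high Serpina1e. Connective tissue cells there had Prg4 at 10428 and 19737 CPM but Serpina1e at 3.65 and 7.86 CPM. In the synovial lining-like cluster among them Serpina1e was at 1.54 and 2.68 CPM.

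Set side by side, superficial zone chondrocyte-like cells had 12.1-fold [10.6, 13.9] more Serpina1e than chondrocyte-like cells in sham and 15.2-fold [13.2, 17.5] more in DMM, from 155.6 against 12.8 CPM and 245.5 against 16.2 CPM. The genes compared had at least 50 UMIs over these 2 classes together. Of these, 1.93% in sham and 1.86% in DMM were at least 10-fold higher in superficial cells, and Serpina1e was the only family member among them. At least 10-fold lower in superficial cells were 3.40% and 3.18% of genes, among them Serpina1a, Serpina1c and Serpina1d in both libraries. Serpina1a was 62.2-fold [56.9, 68.1] lower in sham and 115-fold [102, 131] in DMM, Serpina1d 25.8-fold and 45.1-fold, and Serpina1c 22.3-fold [15.7, 32.7] and 15.9-fold [11.5, 22.6]. Since the family was chosen for such differences, nothing is read from its count against those shares. Serpina1b differed least, 2.21-fold [2.12, 2.30] lower in sham and 1.60-fold [1.53, 1.66] lower in DMM. That direction was not stable. A marker gate in place of clusters redefined both classes among all kept cells. Superficial cells then had at least 1% of UMIs from Prg4 and a UMI of Acan and Col2a1 (1640 and 1696 cells). The other chondrocytes had under 0.1% and a UMI of Acan, Col2a1 and Col9a1 (2019 and 1575 cells). With this gate Serpina1b was higher in superficial cells by 0.31 (log2) in sham and 0.52 in DMM. With the Chst5 cluster added to the superficial clusters it was higher in DMM by 0.23.

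The makeup of the family signal in each cell group shows the same division on a scale free of how many other transcripts a cell holds. Of all family UMIs, Serpina1a made up 50.7% in sham and 46.0% in DMM, Serpina1d 26.2% and 23.9%, Serpina1b 17.3% and 21.6%, Serpina1e 4.15% [4.04, 4.26] and 7.24% [7.08, 7.40], and Serpina1c 1.69% and 1.33%. In the Chst5 cluster Serpina1b (63.2% and 65.9%) and Serpina1e (33.8% and 31.3%) together made up nearly the whole signal. The Casr cluster was the only one of the 7 in which Serpina1e outweighed Serpina1b, and only in DMM, with 48.5% [46.4, 50.6] against 46.3% [44.2, 48.4], intervals that overlap (33.2% against 53.1% in sham). In the A2m cluster Serpina1e was 0.0563% and 0.0973% of family UMIs.

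**Figure D2:**
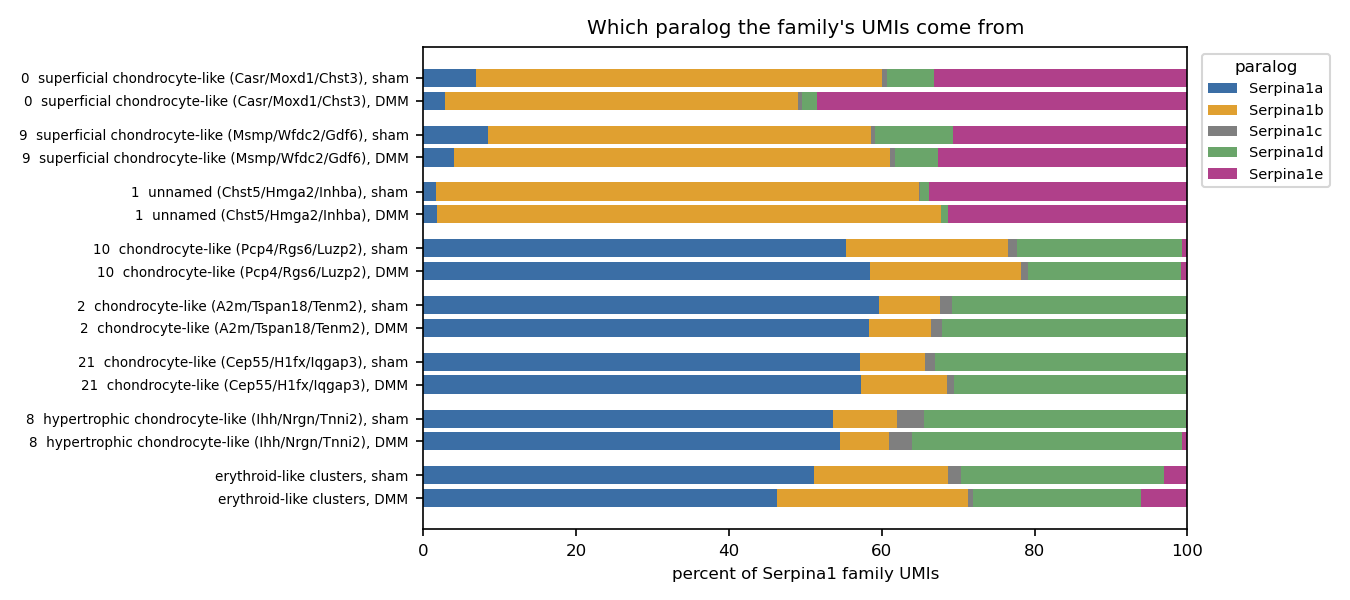
Share of family UMIs from each Serpina1 gene (percent, stacked to 100) in each cartilage cluster and in erythroid-like cells, sham and DMM side by side. Serpina1b and Serpina1e fill the bars of the Prg4-rich clusters, and Serpina1a and Serpina1d those of the chondrocyte-like and hypertrophic clusters; the erythroid-like bars resemble all cells together.

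Serpina1a and Serpina1d also kept different proportions among the deeper clusters. There were 1.94 Serpina1a UMIs per Serpina1d UMI in the A2m cluster in sham and 1.82 in DMM, 2.56 and 2.92 in the Pcp4 cluster, and 1.56 and 1.54 in hypertrophic cells. Erythroid-like cells, with 354 and 164 family UMIs in all, had 51.1% and 46.3% Serpina1a and 3.11% and 6.10% Serpina1e, proportions near those over all cells. The family as a whole stood at 4494 and 4500 CPM in the A2m cluster, 4645 and 5462 CPM in the Pcp4 cluster, 1369 and 1556 CPM in the Chst5 cluster and 194 and 368 CPM in the Casr cluster.

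Cell by cell, Serpina1a and Serpina1d were spread widely over chondrocyte-like cells, whereas Serpina1b and Serpina1e were held by few superficial cells. To compare cells of different depth, each was thinned to 2000 UMIs, leaving out 13 and 11 superficial and 9 and 15 chondrocyte-like cells with fewer. Serpina1a was then detected in 76.9% [74.6, 79.1] of chondrocyte-like cells in sham and 81.8% [79.4, 84.1] in DMM (91.9% and 92.2% before thinning), and Serpina1d in 71.2% and 73.0%. Serpina1b was detected in 39.0% and 35.9% of chondrocyte-like cells, and Serpina1c in only 9.18% and 10.2%. The paralogs differ widely in level, and the part of level in detection was not tested. Serpina1e was detected in 9.37% [7.91, 10.99] of superficial cells in sham and 13.6% [11.7, 15.7] in DMM (17.9% and 24.2% before), and in 36.3% and 29.3% of Chst5 cluster cells (51.4% and 44.3% before). In erythroid-like cells the same thinned measure gave 2.84% and 1.49% for Serpina1a, 1.11% and 0.575% for Serpina1b and 0.139% and 0.345% for Serpina1e. Erythroid-like clusters had median depths from 4478 to 16415 UMIs, a range that takes in those of the superficial clusters (6953 to 8422.5).

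The share of transcripts held by the richest cells, taken before thinning, showed the same contrast between genes of unlike level. In superficial cells, the 10% of cells with most Serpina1e held 92.4% of its UMIs in sham and 88.1% in DMM, and for Serpina1b the top 10% held 96.5% and 94.96%. In chondrocyte-like cells the top 10% held 35.4% and 35.1% of Serpina1a UMIs. Among cells of the Chst5 cluster the median Serpina1b level was 0 CPM in both libraries, while the highest cells reached 32944 CPM in sham and 39208 CPM in DMM. In the A2m cluster the median cell had 1729 and 2032 CPM of Serpina1a and 1027 and 1174 CPM of Serpina1d.

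In the cells with at least 20 family UMIs, the leading paralog was counted. Of 978 such chondrocyte-like cells in sham and 780 in DMM, Serpina1a led in 76.0% and 76.0%, Serpina1d in 15.6% and 17.4%, and Serpina1e in 1 cell of each library. In hypertrophic cells (338 and 245) Serpina1a led in 66.9% and 68.6% and Serpina1d in 27.5% and 26.5%. Of the 204 and 287 such cells of the superficial and Chst5 clusters, Serpina1b led in 65.7% and 62.0% and Serpina1e in 29.9% and 34.8%. These cells also supply UMIs to the sums of their clusters, so a match with those sums is not separate evidence.

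In the superficial and Chst5 clusters, cells rich in family UMIs mostly had Serpina1b, with or without Serpina1e, and few had the paralogs of deeper cells. Among superficial and Chst5 cluster cells with at least 20 family UMIs, 138 in sham and 200 in DMM had at least 5 Serpina1e UMIs. Of these groups, 113 and 150 cells also had at least 5 Serpina1b UMIs, and 18 and 18 also had at least 5 UMIs of Serpina1a and Serpina1d together. Counted from the other side, 34 and 31 cells there had at least 5 UMIs of Serpina1a and Serpina1d, so these same 18 and 18 were a larger part of them. Of all 204 and 287 cells there with at least 20 family UMIs, 176 and 235 had at least 5 Serpina1b UMIs. Among these filtered cells Serpina1b was no more frequent in those with Serpina1e. A cell with few Serpina1e UMIs enters this count only if it holds other members, here mostly Serpina1b. The count therefore cannot show whether Serpina1b and Serpina1e go together. In chondrocyte-like cells, all 12 cells in sham and all 8 in DMM with at least 5 Serpina1e UMIs also had at least 5 of Serpina1a and Serpina1d. So did 976 of all 978 and 776 of all 780 chondrocyte-like cells with at least 20 family UMIs, so nothing is read from that count. Over cells thinned to 2000 UMIs, the Pearson correlation of log counts between Serpina1a and Serpina1d was 0.58 in sham (1384 chondrocyte-like cells) and 0.56 in DMM (1040), and between Serpina1b and Serpina1e it was 0.43 (566 cells) and 0.31 (455) in the Msmp cluster. Cells of a library share its preparation and free RNA, and these values describe that library only.

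A cell's Prg4 content gave another view of the family, without the borders between the 7 cartilage clusters. Cells of these clusters were binned by the share of their UMIs from Prg4, from under 0.01% (1324 sham and 709 DMM cells) to at least 10% (220 and 344 cells). Serpina1a went from 2043 CPM in the lowest bin to 16.5 CPM in the highest in sham, and from 2109 to 14.2 CPM in DMM, and Serpina1d from 1050 to 13.4 CPM and from 1083 to 6.29 CPM. Serpina1e went the other way, from 9.39 to 330 CPM in sham and from 14.6 to 331 CPM in DMM, and was lowest in the second bin (6.55 and 11.7 CPM). Serpina1b stayed between 257 and 706 CPM in sham and between 350 and 1225 CPM in DMM, and its highest value was in a middle bin in both (1% to 3% Prg4 in sham, 0.1% to 1% in DMM).

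**Figure D3:**
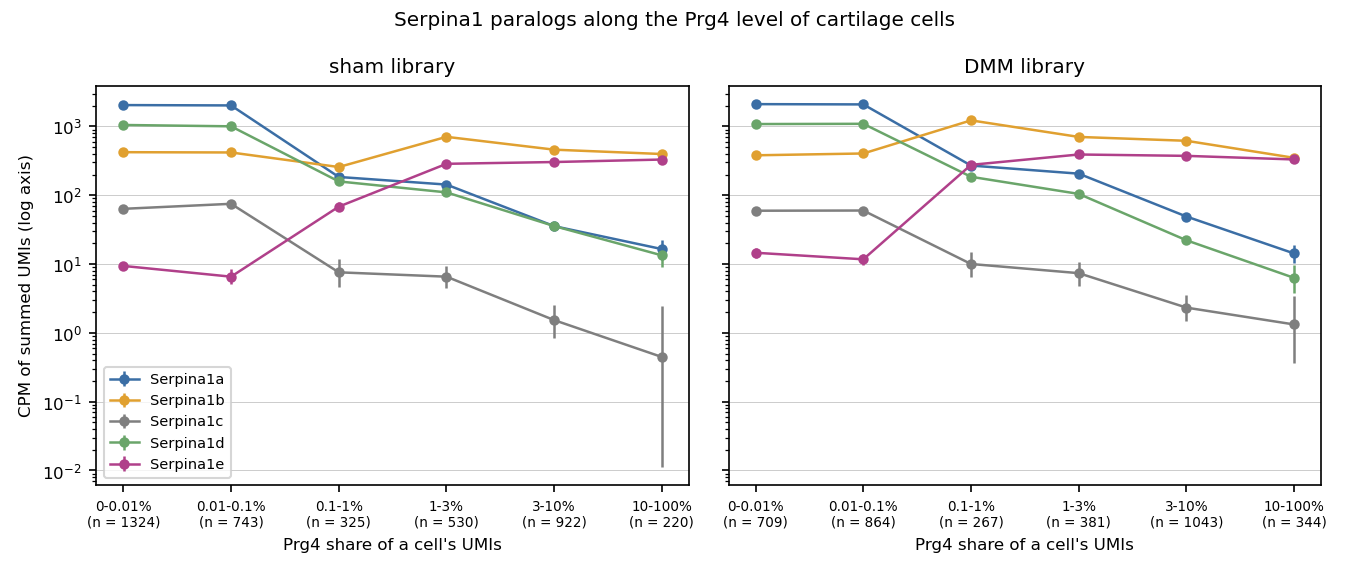
Level of each Serpina1 gene (CPM, log axis) in cartilage cells binned by the percent of their UMIs that came from Prg4, in sham and DMM; bars are 95% Poisson intervals. Serpina1a, Serpina1c and Serpina1d are lowest at the right, Serpina1e is low in the 2 bins at the left, and Serpina1b shows no steady trend.

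Between the libraries, levels of Serpina1e were higher in DMM than in sham in superficial zone chondrocyte-like cells, at 245.5 against 155.6 CPM (2562 and 1862 UMIs), a log2 difference of 0.66 [0.57, 0.74]. Serpina1b was also higher, by 0.46 [0.39, 0.53], while Serpina1a and Serpina1d were lower, with log2 differences of -0.79 [-1.02, -0.56] and -0.68 [-0.88, -0.47]. At a fold of 1.5 or more, Serpina1e was higher and Serpina1a and Serpina1d were lower, 3 of 5 members. Of the 11533 genes with at least 50 UMIs in this class, 19.8% passed that fold, 2.88% as higher and 16.9% as lower in DMM. The median gene was lower in DMM by 0.21 (log2) in superficial cells, by 0.17 in chondrocyte-like cells and by 0.15 in hypertrophic cells, so differences near those values match the common shift. Serpina1c, with 32 and 38 UMIs, had an interval that included no difference, 0.45 [-0.27, 1.17].

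The difference in Serpina1e was not shared evenly by the clusters rich in Prg4. In the Casr cluster its level went from 64.2 to 178 CPM (441 and 1063 UMIs), 1.47 [1.31, 1.64] on the log2 scale. Serpina1e and Serpina1b were at least 1.5-fold higher there, as were 3.48% of genes, and Serpina1d was at least 1.5-fold lower, as were 18.0%. In the Msmp cluster the log2 difference was 0.27 [0.16, 0.37], and in the Chst5 cluster, where the gene was most abundant, 0.07 [0.00, 0.14]. Whether these differences differ was not tested, because each cluster has 1 library per condition. Prg4 itself was higher in DMM in the Casr cluster (51848 against 70712 CPM), and within bins of Prg4 content the libraries differed unevenly. Serpina1e stood at 68.25 CPM in sham and 276 CPM in DMM in cartilage cells with 0.1% to 1% of UMIs from Prg4, at 286 and 391 CPM from 1% to 3%, at 304 and 373.5 CPM from 3% to 10%, and at 330 and 331 CPM from 10%. It was thus higher in DMM in 3 of these 4 bins and level in the highest. The part of Prg4 content in the result was not tested beyond that.

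The Casr cluster's higher Serpina1e was visible in the number of cells and without its richest cells. After thinning to 2000 UMIs, 6.17% [4.67, 7.98] of Casr cluster cells in sham and 12.5% [10.1, 15.1] in DMM had a Serpina1e UMI (14.3% and 22.2% before thinning). Of the cells there with at least 20 family UMIs, Serpina1e led in 4 of 14 in sham and 16 of 27 in DMM. Over the 4 alternatives run for single clusters, which included leaving out the 10 cells with most Serpina1e, the log2 difference in the Casr cluster ranged from 1.46 to 1.72. None of these 4 redrew the cluster, so its dependence on cluster borders was not tested. Serpina1b in that cluster was higher by 0.73 [0.59, 0.87].

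**Figure D4:**
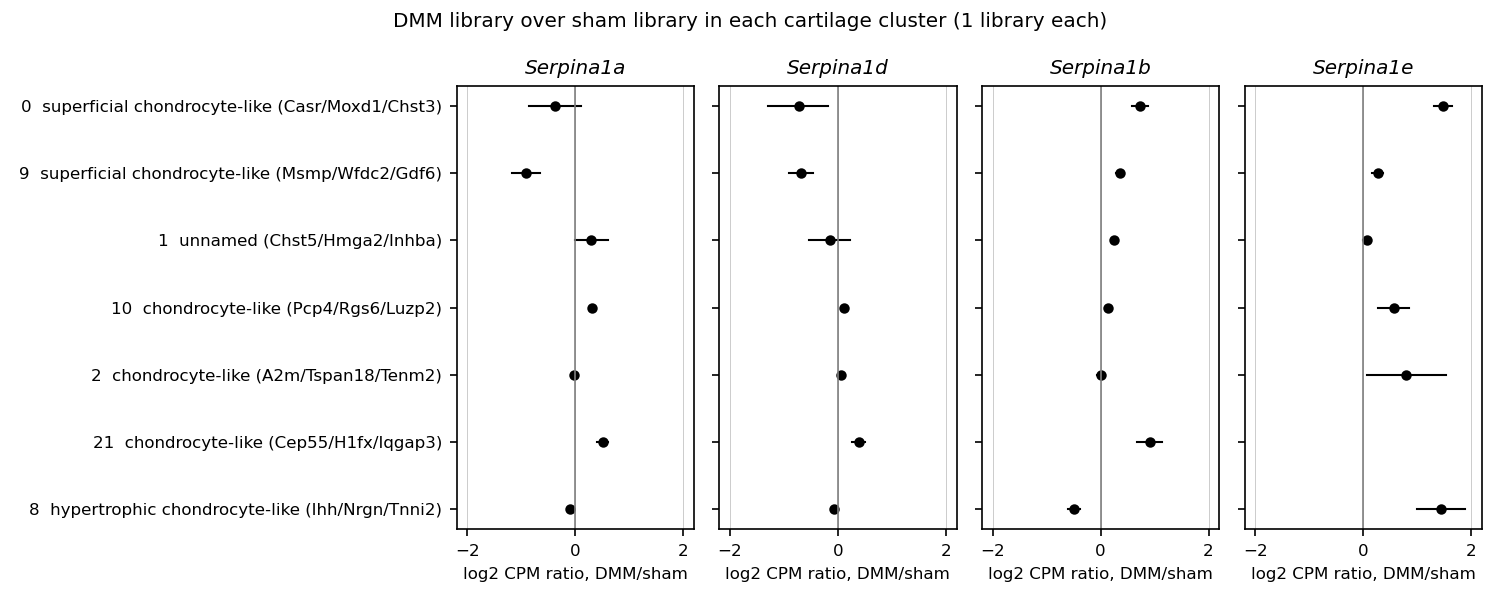
DMM over sham (log2 ratio of CPM, 0 meaning equal) of 4 Serpina1 genes in each cartilage cluster; points are ratios, bars are 95% intervals for counting error only, and pairs with under 50 UMIs are not drawn. Serpina1e in the Casr cluster (1.47) and in hypertrophic cells (1.44) lies far to the right, and Serpina1a and Serpina1d in the Msmp cluster (-0.91 and -0.68) lie to the left.

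The lower Serpina1a of superficial cells changed with the choice of cells, and the lower Serpina1d did not change direction. Serpina1a had 485 UMIs in sham and 245 in DMM, and 28.9% of the sham UMIs came from 1 cell. Erythroid-like cells differed in the same direction, by -0.71 [-1.11, -0.31] for Serpina1a and -0.84 [-1.44, -0.27] for Serpina1d. The Serpina1a difference turned positive under 5 of 14 alternatives, among them Leiden resolution 1.5 (0.31) and a limit of 5% mitochondrial UMIs (0.36), while that of Serpina1d (556 and 303 UMIs) stayed negative in 14 of 14 (-1.05 to -0.44).

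Chondrocyte-like cells showed little difference in the family. Serpina1a stood at 2520 CPM in sham and 2710 CPM in DMM (log2 difference 0.10 [0.09, 0.12]), Serpina1d at 1197 and 1309 CPM (0.13 [0.10, 0.16]), Serpina1b at 558.8 and 555.4 CPM (-0.01 [-0.05, 0.03]) and Serpina1c at 59.5 and 57.9 CPM (-0.04 [-0.17, 0.09]). None of the 5 members reached 1.5-fold, a fold passed by 11.7% of 12653 genes. Serpina1e, at 12.8 and 16.2 CPM, had a difference of 0.33 [0.07, 0.60] that stayed positive in 11 of 13 alternatives. It became -0.04 [-0.81, 0.71] in cells thinned to 2000 UMIs, an interval that takes in the first value, and -0.47 [-0.92, -0.05] without the 10 cells richest in it. Within this class Serpina1a was higher in DMM in the Pcp4 cluster (0.31 [0.28, 0.35]) and in the cycling cluster (0.51 [0.41, 0.60]; 74 and 59 cells), but not in the A2m cluster (-0.03 [-0.05, -0.01]). Serpina1b in the cycling cluster was higher by 0.91 [0.68, 1.13], the only member there past 1.5-fold (4.65% of genes were higher and 20.3% lower), and Hbb-bs stood at 110 CPM in sham and 3997 CPM in DMM.

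In hypertrophic cells the copy that moved most was the rarest there. Serpina1e had 66 UMIs in sham and 121 in DMM, 5.92 and 16.03 CPM, a log2 difference of 1.44 [0.99, 1.89]. It was the only member at least 1.5-fold higher, as were 2.95% of 10789 genes, and no member was lower by that fold, as were 12.0%. A single cell held 22.7% of those UMIs in sham and 28.9% in DMM, and over 12 alternatives the difference ranged from 0.27 to 1.59. Serpina1b was lower in DMM, at 198 against 140 CPM (-0.50 [-0.60, -0.39]), in the 12 alternatives as well (-0.76 to -0.22), and Serpina1c was lower by a log2 difference of -0.32 [-0.48, -0.16]. Serpina1a (-0.09) and Serpina1d (-0.07) differed little with these clusters, but by -0.83 and -0.49 when the variable genes were centred by library before clustering.

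Outside cartilage, single cells held much of a member's UMIs in 4 clusters singled out after their values were seen. In the synovial lining-like Clic5/Pla1a/Tmem196 cluster Serpina1b had 14 UMIs in sham and 586 in DMM (4.31 and 62.7 CPM), but 79.4% of the latter lay in 1 of 815 cells, and after thinning 1.39% and 1.73% of cells had a UMI. Without the richest cell of each library its log2 difference went from 3.86 to 1.69 [0.86, 2.64]. In the tendon or ligament-like Ostn/Tnn/Postn cluster Serpina1e had 4 and 90 UMIs, 86.7% of the latter in 1 of 959 cells. In the Npy cluster 1 cell held 87.4% of the 159 Serpina1b UMIs in DMM, and without the richest cell of each library the log2 difference went from 1.35 to -1.04. Osteoblast-like cells had 211 and 67 Serpina1a UMIs (113.5 and 24.7 CPM), of which 1 cell held 52.1% and 52.2%. There the log2 difference was -2.21 without the richest cell of each library, nearly the value with all cells, and -0.12 [-1.27, 1.08] without the 10 richest.

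Across the 21 clusters with at least 50 cells in each library, Serpina1a, Serpina1c and Serpina1d had nearly the same profile of log2(CPM + 1), with Pearson correlations from 0.95 to 0.99 in sham and from 0.96 to 0.98 in DMM. Serpina1e correlated with Serpina1b at 0.74 and 0.72, and with Serpina1a at 0.13 and 0.19. Of 12148 genes, the one most like Serpina1e was Cytl1, a secreted cytokine-like protein of cartilage and a superficial marker here, at 0.91 and 0.90 (32266 and 38139 CPM in superficial against 3076 and 3258 CPM in chondrocyte-like cells). Others among its first 15 were Chst5, a sulfotransferase (0.87 and 0.87), Lgr6, a receptor for R-spondins (0.86 and 0.89), and Msmp (0.86 and 0.84). For Serpina1d the most alike was Cnmd, which encodes the cartilage protein chondromodulin (0.99 and 0.98), followed by Serpina1a and Col9a1, a chain of type IX collagen. For Serpina1b they were Ucma, a secreted cartilage matrix protein (0.95 and 0.93), and Scrg1 (0.94 and 0.92). These values rank genes over clusters of the same libraries and carry no test. Within superficial cells, over single cells, the correlation of Serpina1e with Serpina1b was 0.41 in sham and 0.29 in DMM, a weak relation in sparse counts that is not read further.

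Genes around the family in its pathway were listed by role and described by their count past 1.5-fold in superficial cells, to be read beside the 2.88% of all genes that were higher and the 16.9% that were lower there. Of 18 other clade A serpins, only Serpina3n, an acute phase serpin, had enough UMIs, and it was at 35.6 CPM in sham and 54.1 CPM in DMM, past the fold. In the Chst5 cluster Serpina3n was higher still, at 297 and 435 CPM, and did not pass it. Of 17 serpins of other clades 11 were measured, and 2 (Serpinc1 and Serpini1) were lower, a share near the 16.9% of all genes. Serpine2, an inhibitor of thrombin and plasminogen activators, stood at 1606 and 1758 CPM in superficial cells and 59.0 and 49.4 CPM in chondrocyte-like cells, so it shared the superficial side with Serpina1e.

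Genes of the inhibitor's targets and of its handling came next. Elane, which encodes neutrophil elastase, had 1 UMI in superficial cells in sham and 0 in DMM, where a count of 0 allows up to 0.287 CPM (3 counts of the total). Of 17 serine proteases 5 were measured, of which 2 (Prtn3 and Plau) were lower in DMM (16.9% of all genes), with a median log2 difference of -0.57, and Htra1 was the most abundant (225 and 289 CPM). All 17 genes of protein export and quality control in the endoplasmic reticulum, where mutant alpha-1-antitrypsin is known to be retained, were measured: 1 (Edem3) was lower (16.9% of all genes), and the median was -0.28. Of 6 clearance receptor genes 5 were measured, and 1 (Vldlr) was higher (2.88% of all genes), with a median of -0.17. Lrp1 stood at 460 and 389 CPM. The median over all genes, for comparison, was -0.21.

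Liver markers were at or near 0 in these cells. Of 12 hepatocyte markers none reached 50 UMIs in superficial cells, 9 were at 0 in both libraries, and their summed level was 2.59 CPM in sham and 2.11 CPM in DMM. In chondrocyte-like cells that sum was 9.21 and 10.3 CPM, most of it Fgg (7.91 and 9.38 CPM), a fibrinogen chain, while Alb, the albumin gene, was at 0.101 and 0 CPM. Of the 12 liver-type transcription factor genes 4 were measured in superficial cells and 1 (Prox1) was lower (16.9% of all genes), with a median of 0.02. Foxa3, a forkhead factor of liver, stood at 22.9 and 30.3 CPM in superficial, 88.6 and 91.0 CPM in chondrocyte-like and 156.5 and 171.7 CPM in hypertrophic cells, and Cebpd at 106 and 118.5, 339 and 393, and 423.5 and 522.8 CPM.

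In liver, Serpina1 is induced in the acute phase by cytokines of the IL-6 family. Of 14 genes of IL-6 family signalling 12 were measured in superficial cells, 2 (Lif and Il6ra) were lower, a share near the 16.9% of all genes, and the median was -0.24, against -0.21 over all genes. Of 15 acute phase genes 4 were measured: Lcn2, an iron-carrier binding protein of neutrophils and stressed tissue, at 10.95 and 28.3 CPM, and Hp, haptoglobin, at 2.17 and 7.67 CPM, were higher (2.88% of all genes), C3 was lower (16.9%), and the median was 0.60. In chondrocyte-like cells Lcn2 went the other way, at 3.88 and 0.960 CPM.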

How the data were processed

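The data are 2 single-cell libraries of mouse knee cartilage, 1 sham and 1 DMM. The authors deposited raw UMI counts for each gene in each barcode. Cell Ranger 7.1.0 made them, per the file headers. The submitters' processing notes name mm10, Seurat, STAR, HTSeq, DESeq2 and another version, Cell Ranger 3.0.1, so the settings behind the counting of near-identical paralogs are not given in the sources used here. A further table has 6 per-sample columns whose names match no sample, and it was not used here.

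Barcodes needed 500 genes and no more than 10% mitochondrial UMIs. Scrublet marked 517 barcodes in sham (4.55%) and 319 in DMM (2.88%) as doublets, and these were removed. On log counts (10000 per cell), 2000 variable genes without the Serpina1 genes, 30 principal components, 15 neighbours and Leiden resolution 1.0 (seed 1) gave the clusters. Names ending in "-like" were given from the best scoring of 22 marker lists (the mean log2 fold of its genes) and needed a score of 0.75 and 3 markers. A cluster whose 10 leading genes held more markers of another list stayed unnamed. UMIs were summed per class and library into CPM, with exact Poisson intervals. Ratios have exact conditional binomial 95% intervals and shares have Clopper-Pearson ones, all for counting error only. A ratio between libraries or classes needed 50 UMIs. No test was possible with 1 library per condition. The scripts for ratios and intervals were tested on simulated data.

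Genes alike in pattern were the first 15 for Serpina1e and the first 5 for each other member, ranked by the smaller of both libraries' correlations among genes with at least 500 UMIs; of the 9 gene lists, up to 4 members with the highest superficial level, and all members of counts of 5 or fewer, could be named. The text names some of these. Promoters and start sites came from RefSeq (GRCm38.p6), gene models from GENCODE vM21.

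The members, lists and rules were chosen with earlier results of these data known. The promoter windows and motifs, the clusters named outside cartilage, and the alternatives that add the unnamed cluster or leave out 10 cells were chosen after seeing the data. The tools were scanpy 1.11.5, leidenalg 0.10.2, scipy 1.17.1 and matplotlib 3.10.9 in Python 3.11.15.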

Additional observations from a re-analysis of the deposited data

Results flagged for a closer look

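DMM over sham had opposite signs in different cartilage classes for Serpina1a, Serpina1b and Serpina1d, with counting intervals that left out 0 on both sides. The share of all genes that do so was not counted, so nothing about the family is read from this. For Serpina1a the log2 ratio was 0.10 in chondrocyte-like cells, -0.79 in superficial zone chondrocyte-like cells and -0.09 in hypertrophic cells. For Serpina1d it was 0.13, -0.68 and -0.07 in the same classes. For Serpina1b it was 0.46 in superficial and -0.50 in hypertrophic cells. The Serpina1a value in superficial cells kept its sign in only 9 of 14 alternatives. With 1 library per condition the differences between classes were not tested. The values of Serpina1a and Serpina1d near 0 are smaller than the common shift of the median gene (-0.17 in chondrocyte-like and -0.15 in hypertrophic cells), and erythroid-like cells had -0.71 for Serpina1a and -0.84 for Serpina1d.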

How the results depend on the processing

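No paired analysis was possible because each group has 1 library. Of 65 alternatives to the 6 Serpina1e results that answer a comparison, 32 gave a value within the main interval, 31 moved it and 2 reversed it; the cause was not tested. The higher Serpina1e of superficial over chondrocyte-like cells kept its direction in 14 of 14 alternatives in each library, as did the lower Serpina1a, Serpina1c and Serpina1d. In sham its log2 value, 3.60, became 3.40 with the Serpina1 genes allowed in clustering, 3.21 at Leiden resolution 0.5, 2.49 with genes centred by library, 4.77 with a minimum of 1000 genes, 3.86 with at most 5% mitochondrial UMIs, 2.69 with doublets kept, 3.24 thinned to 2000 UMIs, 5.27 with a marker gate, 4.37 with the Chst5 cluster added and 3.81 without the 10 richest cells. In DMM, 3.92 became 3.63, 3.60, 2.73 and 4.51 under the first 4 of these, 3.22 with doublets kept, 4.19 without the richest cell, 4.84 with the gate, 4.45 with the Chst5 cluster and 5.18 without 10 cells. DMM over sham for Serpina1e in superficial cells, 0.66, stayed positive in 14 of 14: 0.86 at resolution 0.5, 0.41 with 1000 genes, 0.46 at 5% mitochondrial UMIs, 1.02 with doublets kept (a class of 912 and 732 cells), 0.88 with median-of-ratios scaling, 0.29 with the gate, 0.42 with the Chst5 cluster and 0.90 without 10 cells. In chondrocyte-like cells 0.33 became 0.66 with 1000 genes, 0.71 with the gate, -0.04 thinned and -0.47 without 10 cells. The Serpina1e share of family UMIs, 4.15% in sham and 7.24% in DMM, became 5.65% and 8.84% thinned.

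Among other DMM over sham values, Serpina1a in superficial cells reversed to 0.31 (resolution 1.5), 0.26 (centred), 0.01 (1000 genes), 0.36 (5% mitochondrial UMIs) and 0.32 (gate). Median-of-ratios scaling reversed Serpina1a in hypertrophic cells (0.06) and the A2m cluster (0.11) and Serpina1d in hypertrophic cells (0.08; 0.01 thinned), and centring reversed Serpina1d in chondrocyte-like cells (-0.18). Without 10 cells, Serpina1b reversed in the Msmp (-0.10), Pcp4 (-0.04) and Npy clusters (-1.09; -1.04 without 1 cell) and Serpina1e in the Pcp4 cluster (-0.71). Serpina1b in superficial over chondrocyte-like cells reversed with the gate (0.31 and 0.52) and, in DMM, with the Chst5 cluster (0.23). Counts of Serpina1c in superficial cells were too few to show a difference at this depth.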
